A study of Drosophila melanogaster with 12 samples.

Results

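CG9505 is 1 of 8 genes of the fruit fly Drosophila melanogaster that are described here as neprilysin-type peptidases. The other 7 are CG9507 and CG9508, its relatives on chromosome arm 2L, and Nep1, Nep2, Nep3, Nep4 and Nep5. Members were found by their gene name in the deposited tables, and 7 of the 8 were matched, out of 12982 genes with counts in all libraries. CG9508 was not analysed under that name. A RefSeq gene table gives that older name to 3 current genes of the same locus. CG42370 (now Nepl6), the only 1 of the 3 with a neprilysin-like name, is described below as a listed neighbour. CG9505 was chosen because its level was about 3-fold higher in each heterozygous group than in wildtype, so those values are a description and carry no test.

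RNA was sequenced from whole adult flies, 10 to 11 days old, of the Canton S background, in 12 polyA-selected libraries. The 4 groups of 3 libraries were wildtype flies, and flies labelled AKHR +/- with no obese parent (het), an obese father (the paternal group) or an obese mother (the maternal group). AkhR encodes the receptor for adipokinetic hormone, the fly hormone that mobilises stored fat. The kind of AkhR allele, the sex of the flies, how many were pooled and what made the parents obese were not stated in the labels. All 3 heterozygous groups share the AKHR +/- genotype, and wildtype is the only group without it, so the heterozygous locus and any linked sequence cannot be told apart in comparisons with wildtype.

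Neprilysins are zinc metallopeptidases of the M13 family, which cut short peptides on the amino side of hydrophobic residues. Most sit in the cell membrane with the catalytic domain outside, and some are secreted. In mammals neprilysin degrades enkephalins, tachykinins, natriuretic peptides and amyloid beta, and so ends peptide signals. Flies have an expanded family, in which some members lack residues needed for catalysis.

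Depth was 17212029 to 21370713 listed reads per library. AkhR, listed as GRHR, had 77.3 to 84.8 CPM (read counts scaled to a common library size with TMM factors) in wildtype and 71.6 to 84.3 CPM in the heterozygous libraries, which overlapped, so its level does not check the labels. Maternal replicate 1 stood apart in reads from 92 cytosolic ribosomal protein genes, 6.38% against 5.48 to 5.85% in the other 11 libraries. Markers of both male organs were abundant in all libraries, while 7 egg and ovary markers summed to only 24.3 to 30.3 CPM. Whole flies were sampled, so fewer cells of a type and less RNA per cell cannot be told apart in any value below.

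CG9505 (FBgn0031805, now named Nepl4) lies on the plus strand of 2L at 6367884 to 6370195 of the D_melanogaster_Apr_2006 assembly and overlaps no other listed gene. Its level was 3.55, 3.76 and 3.01 CPM in wildtype replicates 1 to 3. In het it was 11.3, 10.4 and 11.0 CPM. The lowest het library was therefore well above the highest wildtype library. In paternal it was 10.7, 13.5 and 10.9 CPM, and in maternal it was 10.8, 10.4 and 11.7 CPM. All 9 heterozygous libraries stood above all 3 wildtype libraries, and paternal replicate 2 was the highest of the 12. These levels rest on 59 to 70 reads per wildtype library and 189 to 235 per heterozygous library.

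The mean level of CG9505 (± SD, n = 3) was 3.44 ± 0.386 CPM for wildtype. For het, paternal and maternal flies it was 10.9 ± 0.469, 11.7 ± 1.56 and 11.0 ± 0.654 CPM. In the edgeR fit over all genes, the log2 change against wildtype was 1.66 in het, 1.76 in paternal and 1.67 in maternal. These are 3.17-fold, 3.38-fold and 3.18-fold higher levels. Over the mean of the 3 heterozygous groups the fold was 3.24. The 3 comparisons share the wildtype libraries, so they are not independent. Of all genes tested, 5.82% had 9 heterozygous libraries that did not overlap the 3 wildtype libraries, and nothing is read from that share for CG9505, which was chosen on it.

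The authors' deposited table gives smaller log2 ratios for CG9505, 0.70 in het, 0.72 in paternal and 0.72 in maternal, each against wildtype. Those ratios are less than the log2 ratios of the deposited counts themselves. The authors' deposited tables list an exon usage ratio of 0 for CG9505 and for the other members in all 5 comparisons. CG9505 and CG9507 have 1 exon, so for them the ratio could not show a change. A value of exactly 0 for every other member may be a default, so nothing is read from it.

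**Figure D1:**
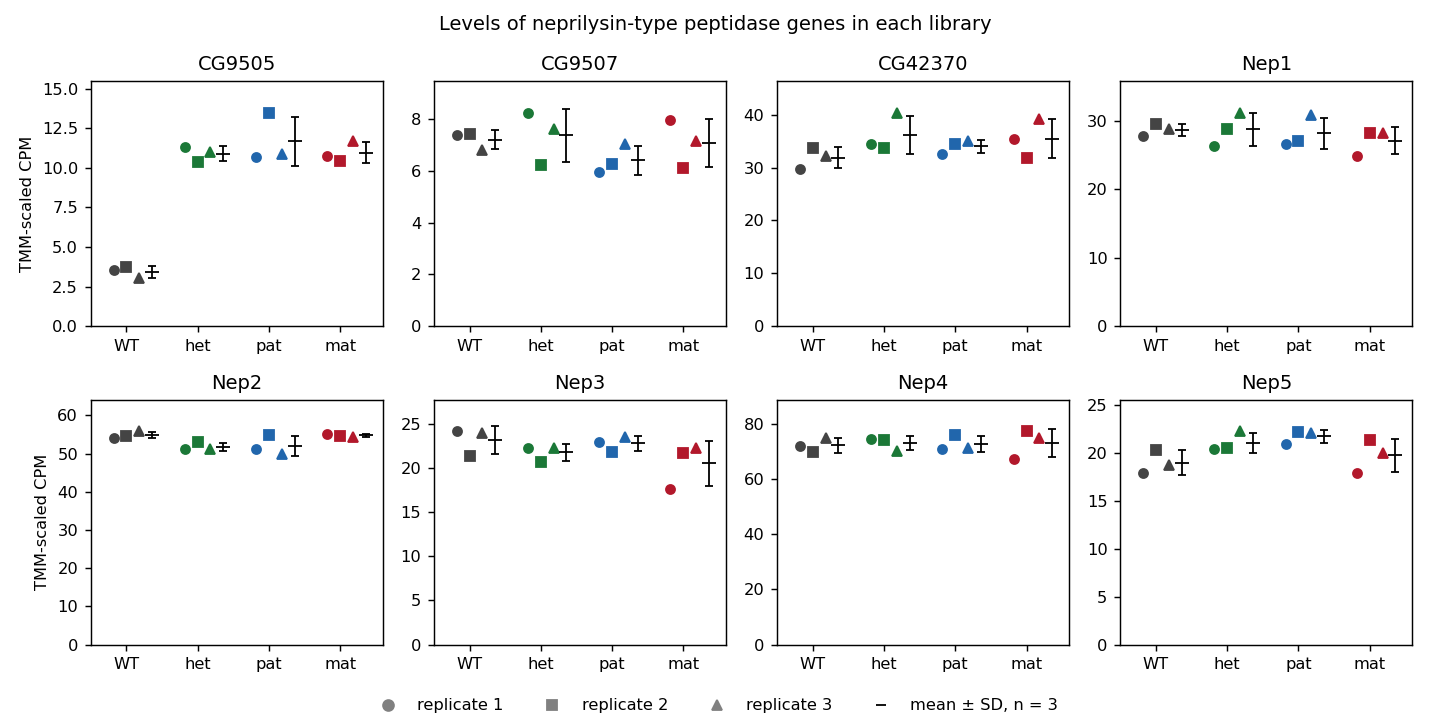
Level of each member and of CG42370 in every library, in CPM on a linear axis for each gene, with the replicate number as the marker and the mean ± SD of 3 libraries per group. CG9505 is at 3.01 to 3.76 CPM in wildtype and 10.4 to 13.5 CPM in the heterozygous libraries, while the groups of the other genes lie close together.

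CG9505 was chosen for being raised in each heterozygous group, so how alike their levels are is also given as a description, with no test. The log2 difference was 0.09 ± 0.0979 (SE of the edgeR fit) for paternal against het, 0.01 ± 0.0992 for maternal against het and -0.09 ± 0.0983 for maternal against paternal. The libraries overlapped in all 3 pairs. Among the 9 heterozygous libraries, the coefficient of variation of CG9505 was 8.53%.

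CG9507 (FBgn0031808, now Nepl5) is the next M13 gene on the same strand, at 2L 6381266 to 6383421, 11071 bp beyond CG9505. The gene slam lies between them. CG9507 lies within the span of CG42368 on the other strand, which also reaches into the gap. Reads of overlapping genes cannot be told apart without the strand. The level of CG9507 was 7.40, 7.42 and 6.79 CPM in wildtype, and 8.23, 6.24 and 7.62 CPM in het. It was 5.95, 6.24 and 7.04 CPM in paternal flies, and 7.97, 6.12 and 7.14 CPM in maternal. All 4 groups overlapped. The log2 change of the heterozygous groups against wildtype was -0.06 ± 0.0985, with a 95% interval of -0.26 to 0.15 and an adjusted p of 0.843 in edgeR's quasi-likelihood test, adjusted by the Benjamini-Hochberg method over the 12809 genes tested.

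Set side by side, the pair changed order. Per length, as FPKM (fragments per kilobase of gene model, scaled to library depth), CG9505 stood at 0.414 to 0.473 of the CG9507 level in the wildtype libraries. The ratio was 1.28 to 1.55 in het, 1.44 to 2.01 in paternal and 1.26 to 1.59 in maternal. So CG9505 was the lower of the pair in all 3 wildtype libraries and the higher in all 9 heterozygous ones. The ratio holds the CG9505 values that chose it and is given as a description.

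CG42370 (FBgn0259716) lies 124 bp beyond CG9507, at 2L 6383545 to 6385512 on the minus strand, inside the span of CG42368 on the same strand. Its level was 29.7, 33.7 and 32.3 CPM in wildtype, 34.5, 33.7 and 40.4 CPM in het, 32.6, 34.5 and 35.0 CPM in paternal flies, and 35.4, 31.8 and 39.2 CPM in maternal. The het libraries lay just above wildtype, the paternal and maternal ones overlapped it. The log2 change of the heterozygous groups was 0.14 ± 0.0655 with an adjusted p of 0.315 in edgeR's test.

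Nep4 (FBgn0038818, 3R 16478289 to 16485328) is known in flies from muscle and the nervous system, where its amount affects feeding and insulin-like peptide signalling. It had the highest level of the 7 members. It stood at 72.0, 69.8 and 75.1 CPM in wildtype, 74.8, 74.3 and 70.4 CPM in het, 71.1, 76.3 and 71.3 CPM in paternal flies, and 67.4, 77.4 and 74.9 CPM in maternal. All groups overlapped, and the log2 change of the heterozygous groups was 0.02 ± 0.0466 with an adjusted p of 0.914.

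Nep2 (FBgn0027570, 3R 545180 to 557600) is a soluble, secreted neprilysin of flies that cleaves tachykinin peptides and is known from Malpighian tubules and testis. It stood at 54.1, 54.6 and 55.8 CPM in wildtype, 51.1, 53.1 and 51.1 CPM in het, 51.2, 55.0 and 49.9 CPM in paternal flies, and 55.2, 54.6 and 54.5 CPM in maternal. The het libraries lay below wildtype and below maternal without overlap. The log2 changes were small, -0.08 ± 0.0508 for het against wildtype (adjusted p = 0.589) and 0.08 ± 0.0509 for maternal against het (adjusted p = 0.993).

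Nep1 (FBgn0029843, X 5985803 to 5998006) is one of the neprilysins needed in the fly brain for memory. Its libraries ran from 27.8 to 29.6 CPM in wildtype, 26.3 to 31.1 in het, 26.7 to 30.8 in paternal flies and 24.9 to 28.3 in maternal. The groups overlapped, and the log2 change of the heterozygous groups was -0.03 ± 0.0618 with an adjusted p of 0.843. Nep3 (FBgn0031081, X 19855330 to 19862712) ran from 21.4 to 24.2 CPM in wildtype, 20.7 to 22.3 in het, 21.8 to 23.6 in paternal flies and 17.6 to 22.3 in maternal. Its lowest value was in maternal replicate 1, the library that stood apart in ribosomal protein reads. The log2 change of maternal against wildtype was -0.17 ± 0.0823 (adjusted p = 0.412), and without maternal replicate 1 it was -0.07 ± 0.0753 (adjusted p = 0.833).

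Nep5 (FBgn0039478, 3R 22883630 to 22889500, minus strand) overlaps NepYr and CG34292 on the other strand, so its reads may include theirs. It stood at 17.9, 20.4 and 18.8 CPM in wildtype, 20.4, 20.6 and 22.3 CPM in het, 20.9, 22.2 and 22.1 CPM in paternal flies, and 17.9, 21.3 and 20.04 CPM in maternal. Het and paternal lay above wildtype without overlap, het by a narrow margin, and maternal overlapped it. The log2 change against wildtype was 0.15 ± 0.0756 in het (adjusted p = 0.504), 0.19 ± 0.0753 in paternal (adjusted p = 0.344) and 0.06 ± 0.0763 in maternal (adjusted p = 0.782). The lowest maternal value was again that of replicate 1, and without it the maternal change was 0.12 ± 0.0774 (adjusted p = 0.697). None passed the threshold of 0.05. The authors' deposited table gives log2 ratios of 0.10, 0.13 and 0.04 for Nep5 in the same order.

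**Figure D2:**
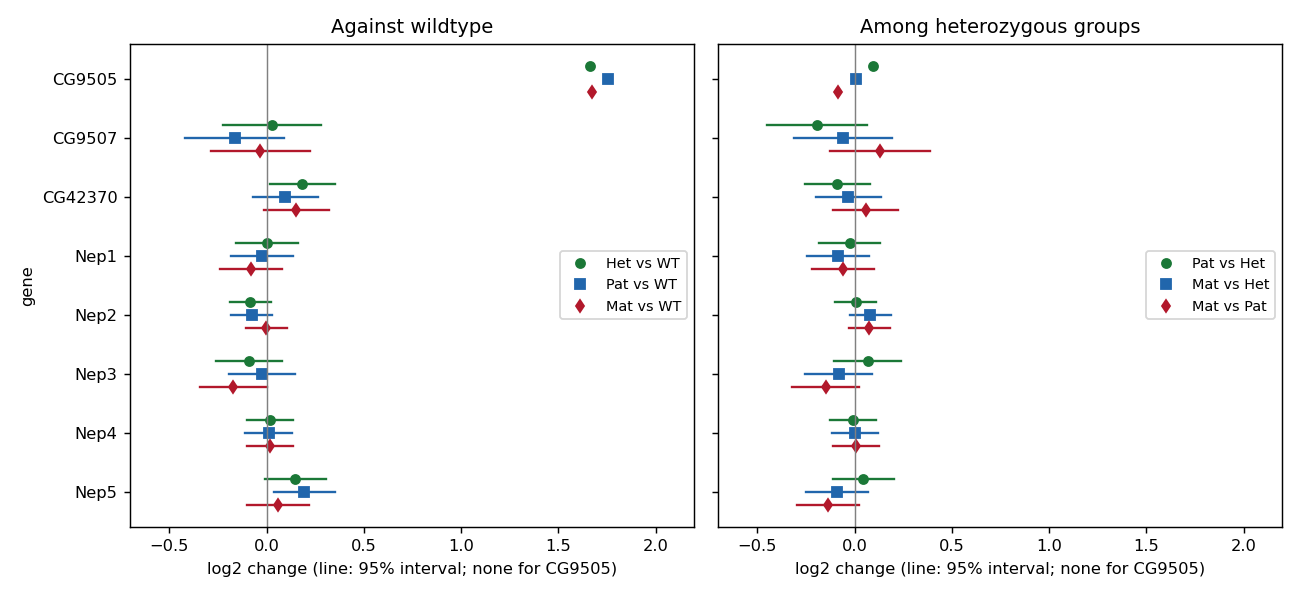
Log2 change of each member and of CG42370 against wildtype and between the heterozygous groups, with 95% intervals from the edgeR fit for all genes but CG9505, whose values are a description. CG9505 stands at 1.66 to 1.76 against wildtype and near 0 between heterozygous groups, and the changes of the other 6 members lie between -0.19 and 0.19.

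Counted over the other 6 members, edgeR's test called 0 in every comparison. The shares of all 12809 genes called were 0.593% in het against wildtype, 0.523% in paternal against wildtype and 0.344% in maternal against wildtype. They were 0.00781% in paternal against het, 0.0156% in maternal against het and 0.0156% in maternal against paternal. For the 3 heterozygous groups together against wildtype the share was 1.49%, or 191 genes, and again 0 of the 6 were called. At shares this low, 0 of 6 is near the background. With the replicate number as a block the calls over all genes rose to 284, 206 and 227 in the 3 comparisons with wildtype, from 76, 67 and 44, which are 2.22%, 1.61% and 1.77% of the genes, and still 0 of the 6 were called.

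Over the 6 pairs of groups these members gave 36 changes, from -0.19 to 0.19 on the log2 scale, of which 1 (Nep5, paternal against wildtype) had an unadjusted p under 0.05, against 7.06% of the changes of all genes over these pairs. DESeq2 and limma-trend also called 0 of the 6 in each comparison. For the heterozygous groups together, the median log2 change of the 6 was -0.04, and that of all genes was -0.01. Libraries did not overlap for 2 of the 6 in het against wildtype (19.4% of all genes), for 1 in paternal against wildtype (19.2%) and for 1 in maternal against het (8.43%). Libraries overlapped for all 6 in maternal against wildtype (15.1% of all genes not overlapping), paternal against het (8.59%) and maternal against paternal (6.43%), and for all 6 between the 9 heterozygous and the wildtype libraries.

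Levels between genes were compared per length. In wildtype the order of mean FPKM was Nep4 (19.3), Nep2 (17.3), Nep1 (7.73), Nep3 (5.46), Nep5 (5.34), CG9507 (3.31) and CG9505 (1.47). Only Nep3 and Nep5 overlapped as neighbours in that order. In het, CG9505 stood at 4.74 FPKM, above CG9507 at 3.43, and overlapped Nep3 at 5.20. In paternal and maternal it likewise stood between Nep3 and CG9507, at 5.07 and 4.75 FPKM, and overlapped Nep3.

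The 24 M13 genes with counts, from 52.7 FPKM for CG14526 (now Nepl21) downwards, put these levels in a wider order. CG9505 ranked 23 of 24 in wildtype and 19 of 24 in each heterozygous group. CG9507 ranked 20 in wildtype and 21 in each heterozygous group. CG9505 was thus a weakly expressed member of the family in whole flies of every group.

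**Figure D3:**
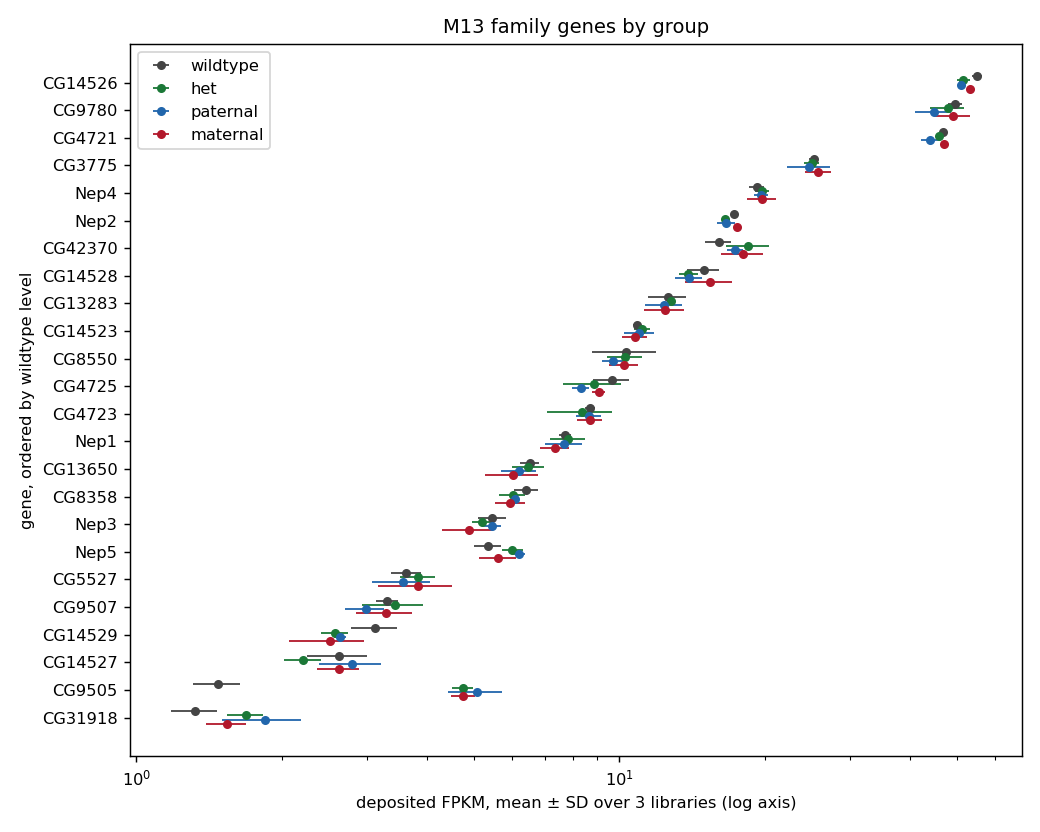
Mean FPKM of the 24 M13 genes in each group on a log axis, ordered by the wildtype level. CG9505 is at 1.47 FPKM in wildtype and 4.74 to 5.07 FPKM in the heterozygous groups, and the 4 groups of most other genes fall nearly on one another.

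The rest of the M13 family, 17 genes with counts including CG42370, held 0 genes called in any of the 7 comparisons by edgeR's test. DESeq2 and limma-trend also called 0. Of all genes, edgeR called at most 1.49% in any comparison, so 0 of 17 is near the background. For the heterozygous groups against wildtype, 14 of the 17 had a negative log2 change and 3 a positive one, with a median of -0.06. The median of all genes was -0.01. The genes share the same libraries and none was called, so no fall of the family is read from these signs. An unadjusted p under 0.05 was given by 5 of the 17, against 14.6% of all genes in that comparison. The ends of the range were CG14529 at -0.29 (adjusted p = 0.161) and CG31918 at 0.33 (adjusted p = 0.221), both chosen after their values were seen. CG31918 was the gene with the lowest level of the 24.

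The 3 other family members with the highest levels were CG14526, CG9780 (now Nepl11) and CG4721 (now Nepl15), a gene known in flies for effects on stored fat and glycogen in males. CG14526 stood at 55.1 ± 1.24 FPKM in wildtype, 51.5 ± 1.55 in het, 51.0 ± 0.285 in paternal flies and 53.2 ± 0.791 in maternal, and its log2 change in the heterozygous groups was -0.10 ± 0.0355 (adjusted p = 0.159). CG9780 stood at 49.6 ± 1.72 FPKM in wildtype and 47.2 ± 3.90 over the 9 heterozygous libraries, a log2 change of -0.09 (adjusted p = 0.503). CG4721 stood at 46.8 ± 0.503 and 45.6 ± 1.63 FPKM, a log2 change of -0.06 (adjusted p = 0.510). None of the 3 passed the threshold.

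Genes for peptide hormones and neuropeptides, the class of substrates of active neprilysins, gave 0 calls of 26 by edgeR, DESeq2 or limma-trend in each comparison. With at most 1.49% of all genes called by edgeR in any comparison, 0 of 26 is near the background. In the heterozygous groups against wildtype the median log2 change of the 26 was -0.07. An unadjusted p under 0.05 was given by 3 of the 26, near or below the 14.6% of all genes. These were Tk, which encodes tachykinins (-0.13, adjusted p = 0.286), ITP, the ion transport peptide (-0.12, adjusted p = 0.248), and Ms, the myosuppressin gene (-0.12, adjusted p = 0.304), named after their values were seen. Akh, the ligand of AkhR, was at 0.08 ± 0.0677 (adjusted p = 0.618).

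Other peptide-processing enzymes, such as the angiotensin-converting enzyme relatives Ance and Acer, gave 0 calls of 14 by edgeR, DESeq2 or limma-trend. This too is near the background of at most 1.49% of all genes called by edgeR. In the heterozygous groups against wildtype the 14 had a median of -0.02 and 2 unadjusted p under 0.05. These too lie near the share of all genes. With the replicate number as a block, 2 of the 14 were called there by edgeR, in a fit that called 695 genes, or 5.43% of all tested. Acer rose, at a log2 change of 0.11 (adjusted p = 0.0476), and Ance-4 fell, at -0.15 (adjusted p = 0.0389). Without the block Acer was at 0.11 (adjusted p = 0.214) and Ance-4 at -0.15 (adjusted p = 0.410).

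Around CG9505 on 2L, 14 other tested genes lay within 50 kb, and 0 of them were called higher in the heterozygous groups. Of all 12809 genes 66 were called higher, so 0 of 14 is near the background. In either direction 1 of the 14 was called, against 1.49% of all genes. Tig, which encodes the extracellular matrix protein tiggrin, fell by 0.39 ± 0.0528 on the log2 scale (adjusted p = 0.000312 in edgeR's test). It stood at 73.7 ± 2.57 CPM in wildtype and 56.4 ± 3.61 over the 9 heterozygous libraries, 45.1 kb from CG9505. The other 13 ran from -0.34 to 0.16 and were not called.

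None of the 3 nearest tested genes on each side of CG9505 passed the test. On the left CG9500 had a mean of 2.31 CPM in wildtype and 1.84 in the heterozygous libraries (log2 change -0.34 ± 0.172, adjusted p = 0.375), and CG9498 and CG9497 were at 0.06 and -0.09. On the right slam, a gene of embryonic cellularisation 2.22 kb away, had 0.853 and 0.937 CPM (0.13 ± 0.231, adjusted p = 0.840). CG42368, which encodes the neuronal surface protein DIP-epsilon, was at 0.01 ± 0.103 (adjusted p = 0.987). AkhR itself lies 341 kb from CG9505 on the same arm. Of the 191 genes called over the whole table, 112 were among the 2454 tested on 2L, 46 higher and 66 lower.

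Genes most like CG9505 over the 12 libraries were ranked by Pearson's r of log2 CPM among 12302 genes with a mean of at least 1 CPM. The 5 highest were CR43263 (0.977), CR43821 (0.955), CG33282 (0.949), CG18132 (0.948) and CG31937 (0.944), all on 2L. Ranked by Spearman's rho the 5 highest were other genes, CG1299, CG1571, CG6661, Cpr60D and CG3394, with rho of 0.832 to 0.846, and 0 of these lie on 2L or are among the first 5. CR43263 ranked 1281 by rho. All genes share the same 12 libraries, and for CG9505 the wildtype libraries stand apart from the rest. CG9505 was chosen for that difference, so genes with a like difference rank high by r, and the ranking is given as a description. CR43263 had 1 read over the wildtype libraries and 1431 over the heterozygous ones, and CR43821 had 8 and 384. CG33282, CG18132 and CG31937 had log2 changes of 0.62, 0.57 and 0.48. Within the 9 heterozygous libraries alone, the r of these 5 with CG9505 ran from -0.87 to 0.05, and 0 of the 5 remained among the top 5.

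The same measure was taken for the other members. Over all libraries it holds the difference from wildtype for which CG9505 was chosen, so it is given as a description. Over the 12 libraries r was 0.57 for Nep5, 0.12 for Nep4, -0.16 for CG9507, -0.20 for Nep1, -0.36 for Nep3 and -0.42 for Nep2. CG42370 had an r of 0.55. Within the 9 heterozygous libraries alone r was 0.27 for Nep5, 0.34 for Nep4, -0.01 for CG9507, -0.14 for Nep1, 0.16 for Nep3, 0.30 for Nep2 and 0.25 for CG42370. Nep2 and Nep3 thus had r of opposite sign in the 2 sets of libraries.

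Summed markers of the male accessory gland, of testis and sperm, and of neurons did not overlap between wildtype and the heterozygous libraries. Those of ovary and egg, Malpighian tubule, hemocytes and muscle overlapped. Of single genes, 5.82% did not overlap between these libraries, and no such share was computed for sums of genes. For the male accessory gland the sums were 4512 to 4896 CPM in wildtype and 3945 to 4166 in het. They were 3954 to 4038 CPM in paternal flies and 3832 to 4310 in maternal. Of its 11 markers, 3 were called lower in the heterozygous groups together, against 1.49% of all genes called in either direction. These were Acp36DE and Acp29AB, both on 2L, and Acp62F on 3L. The median log2 change of the 11 was -0.20. The 12 markers of testis and sperm summed to 3197 to 3324 CPM in wildtype and 3373 to 3860 in the heterozygous libraries, with 0 called and a median of 0.10. The 5 markers of neurons summed to 412 to 423 CPM in wildtype and 312 to 394 in the heterozygous libraries, with 0 called and a median of -0.13. The markers of Malpighian tubule, hemocytes and muscle had 0 called, and none of the markers with counts was at 0 over the libraries. The part of these shifts in the values of CG9505 and the other members was not tested.

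The members also differ in gene structure, which the choice of genes did not use. In the Ensembl annotation of the BDGP6 assembly, the longest coding transcripts of CG9505 and CG9507 each have 1 exon and encode 652 and 684 residues, and CG42370 likewise has 1 exon and 655 residues. Those of Nep1 to Nep5 have 4 to 10 exons and encode 774 to 1040 residues. Of the 24 M13 genes with counts, 15 have 1 exon, and the 14 of these other than CG9505 had log2 changes of -0.29 to 0.33 in the heterozygous groups. By arm, 15 of the 24 lie on 3R, 5 on 2L and 3 on X. The 4 on 2L other than CG9505 are CG9507, CG42370, CG31918 and CG13283.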

How the data were processed

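The authors deposited 5 tables, each comparing 2 groups, with read counts per gene, FPKM and log2 ratios per the file headers. Coordinates are on D_melanogaster_Apr_2006 per the file headers, while Novoalign, DESeq and the build dm3 are named in the submitters' processing notes. No source used here gives versions, the annotation or the strand setting. Joined on gene ID, the tables gave 13040 genes with 0 disagreements, and 58 without counts in all 12 libraries were left out.

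Differences in counts were tested in R 4.3.3 by edgeR 4.0.16, using filterByExpr (minimum count 10, minimum total 15; 12809 genes kept, all 7 members among them), TMM scaling, a robust quasi-likelihood fit of group means over 12 libraries, Benjamini-Hochberg adjustment over all genes and a threshold of 0.05. The 3 heterozygous groups together are the mean of their group effects. Deposited FPKM served for levels between genes. Alternatives were DESeq2 1.42.0, limma-trend (limma 3.58.1), no scaling, no filter, the libraries compared alone, a replicate block and leaving out each library. The likeness within heterozygous libraries was chosen after seeing the data.

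Members and lists were chosen with earlier results of these data known. Named were the members, AkhR, the 5 genes most like CG9505, the 3 nearest tested genes on each side, list members past the threshold and the 3 highest other M13 genes. The series design states 1 set of samples per experimental replicate, read here from the title numbers. Between libraries, deviations from the group mean correlated at 0.119 on average for the same number and -0.0592 otherwise, and 11 of 18 same-number pairs exceeded 0.1. The main fit has no block for these numbers, so any difference between replicate sets stays in the spread behind its p-values. For the heterozygous groups together it called 191 genes, against 695 with the block. P-values cover only library-to-library spread, which may be technical.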

Additional observations from a re-analysis of the deposited data

How the results depend on the processing

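Over 534 values of the 6 members other than CG9505 under the alternatives, 0 were called, and the lowest adjusted p was 0.140. In 48 the sign differed from the reported one. The alternative log2 changes there were at most 0.07 in size, and the reported ones at most 0.08. The log2 change of CG9505 against wildtype ran from 1.57 to 1.82 over 53 alternatives. Between heterozygous groups its 36 alternative values ran from -0.14 to 0.15.

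The number of genes called over the whole table moved more. In het against wildtype (76) it was 121 by DESeq2, 284 with the replicate block, 183 with only the libraries compared, and 41 (without het replicate 1; 45 without wildtype replicate 2) to 64 with 1 library left out. In paternal against wildtype (67) it was 104, 206, 156, and 33 (without paternal replicate 1; 34 to 41 without paternal replicate 3 or any wildtype replicate) to 45. In maternal against wildtype (44) it was 89, 227, 27, and 27 (without wildtype replicate 1) to 116 (without maternal replicate 3). For the heterozygous groups together (191) it was 695 with the block and 63 (without wildtype replicate 2; 78, 99 and 119 without wildtype replicate 1, wildtype replicate 3 and paternal replicate 1) to 360 (without maternal replicate 1; 314 without maternal replicate 3) with 1 library left out, and in paternal against het (1) it was 1 to 2 (without het replicate 3). With the block, 2 of 14 peptide-processing enzymes were called against 0. The cause was not tested. The block changed no call of a member.

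Sign changes concerned log2 changes near 0. Nep1 in het against wildtype was -0.0016 by limma-trend and -0.00067 with the replicate block. Nep2 in maternal against wildtype was 0.0034 by DESeq2, 0.014 without scaling, 0.0038 without the filter and 0.0066 with only the libraries compared. Nep4 in maternal against het was -0.0033 without scaling and -0.00069 by limma-trend.

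With 1 library left out, CG9505 ran from -0.035 to 0.048 in maternal against het, -0.14 to 0.023 in maternal against paternal and -0.014 to 0.15 in paternal against het. CG42370 ran from -0.10 to 0.058 and -0.016 to 0.13 in the first 2 of these. CG9507 ran from -0.057 to 0.14 in het and -0.12 to 0.074 in maternal, each against wildtype, and -0.17 to 0.044 in maternal against het. Nep1 ran from -0.059 to 0.063 in het and -0.095 to 0.018 in paternal, each against wildtype, -0.095 to 0.019 in maternal against paternal and -0.098 to 0.037 in paternal against het. Nep2 ran from -0.0072 to 0.011 in maternal against wildtype and -0.035 to 0.034 in paternal against het. Nep3 ran from -0.077 to 0.0091 in paternal against wildtype and -0.14 to 0.016 in maternal against het. Nep4 against wildtype ran from -0.0074 to 0.045 in het, -0.023 to 0.038 in paternal, -0.018 to 0.074 in maternal and -0.0090 to 0.043 in all 3 together. Between heterozygous groups Nep4 ran from -0.036 to 0.057 in maternal against het, -0.030 to 0.064 in maternal against paternal and -0.040 to 0.013 in paternal against het.

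The wildtype level of CG9505 rests on only 59 to 70 reads per library.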
